A study of Mus musculus with 4 samples.

Results

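The AP-1, NR4A and EGR1 immediate early factors are 10 genes, taken by their symbols from the 22488 genes listed for each library: Fos, Fosb, Fosl1, Fosl2, Jun, Junb, Jund, Nr4a1, Nr4a2 and Egr1. They were followed in cultured mouse vascular smooth muscle cells of the C57BL/6 strain at passages 4 to 10. The 2 groups were cells given an siRNA against circEsyt2, a circular RNA from the gene Esyt2, and cells given a scramble siRNA, each for 48 hours and with 2 libraries. Messenger levels were read by RNA sequencing as FPKM, which scales the reads of a gene by its length and by the total of the library. Whether the replicates came from different dishes is not in the labels, and the p-values then cover the spread of these samples alone, possibly a technical one. Without untransfected cells, each difference is one between the siRNAs, and neither side can be called the unchanged one. In bulk libraries, fewer cells of a type and less RNA per cell cannot be told apart either.

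Immediate early genes are transcribed within minutes of a stimulus, without new protein being made first, and their messengers usually decay quickly. Fos and Jun proteins pair through leucine zippers into AP-1, a factor that binds DNA as a dimer. Jun proteins can pair with each other, whereas Fos proteins need a partner such as a Jun protein. NR4A1 and NR4A2 are orphan nuclear receptors that can act on DNA as monomers, and EGR1 is a zinc finger factor. In smooth muscle cells these factors are known for their response to growth factors, injury and stretch. Cells sampled at a single time, 48 hours after transfection, miss any first wave of induction that followed it. A level held since then cannot be told apart from a more recent induction.

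The read totals behind the FPKM, solved from their digits, were 3765056 and 3127224 with circEsyt2 siRNA, against 2516428 and 4116791 with scramble siRNA. The rounded read numbers of all matched genes summed to more, at 3.84e+06 and 3.18e+06 against 2.56e+06 and 4.19e+06, and the reason was not tested. All 8 smooth muscle markers were above 0 in every library, and 6 of them were called lower with circEsyt2 siRNA. Acta2, the smooth muscle actin gene, had 883 and 829 FPKM with circEsyt2 siRNA and 1421 and 1446 FPKM with scramble siRNA, and together with Cald1 made up most of the summed level. Several defining markers were low: Myh11, the smooth muscle myosin heavy chain gene, had 1.15 and 2.78 FPKM with circEsyt2 siRNA and 8.58 and 7.77 FPKM with scramble siRNA, and Tagln, the transgelin gene, had 5.08 and 8.20 FPKM with circEsyt2 siRNA and 8.80 and 10.4 FPKM with scramble siRNA. The 8 markers summed to 1167 and 1143 FPKM with circEsyt2 siRNA and 1778 and 1791 FPKM with scramble siRNA. The 8 hepatocyte markers summed to 2991 and 93.2 FPKM in circEsyt2 siRNA replicates 1 and 2, and to 11.9 and 3.16 FPKM with scramble siRNA, where 3 and 4 of them were at 0. Alb alone, the albumin gene, reached 2082.5 FPKM in circEsyt2 siRNA replicate 1. The 8 macrophage and leukocyte markers summed to 33.9 and 3.60 FPKM with circEsyt2 siRNA and to 3.88 and 6.95 FPKM with scramble siRNA. The 8 endothelial markers summed to 9.89 and 8.16 FPKM with circEsyt2 siRNA and to 4.04 and 4.68 FPKM with scramble siRNA, and the 8 fibroblast markers to 639 and 730.1 FPKM with circEsyt2 siRNA and to 913 and 826 FPKM with scramble siRNA. Of the 8 endothelial markers 2 passed the filter and were tested, and 1 was called. This was Kdr, higher with 4.32 and 4.00 FPKM with circEsyt2 siRNA and 1.23 and 1.26 FPKM with scramble siRNA (limma adjusted p = 0.0303). Of the 8 fibroblast markers, all tested, Pdgfra, Thy1 and Mfap5 were called lower (log2 fold changes −1.34, −2.09 and −1.22). The other 5 were not called, among them Dcn with a log2 fold change of 0.09. What part these marker levels have in the results that follow was not tested. The main member results and the calls of listed genes are therefore also given without circEsyt2 siRNA replicate 1. Replicate 2 still has a higher hepatocyte marker sum than either scramble library, so those fits do not remove that difference. Esyt2 itself, whose row counts the whole gene and not the circle, had 40.6 and 48.7 FPKM with circEsyt2 siRNA and 53.4 and 50.6 FPKM with scramble siRNA, and was not called (limma, adjusted p = 0.318).

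Nr4a1 and Nr4a2 were both lower with circEsyt2 siRNA, and they were the 2 members called by limma after Benjamini-Hochberg adjustment over all 11290 tested genes. No member was called higher, although Jun, Junb, Jund and Egr1 stood above both scramble libraries in both circEsyt2 siRNA libraries. Among the tested genes 12.7% were called in either direction, 7.26% lower and 5.47% higher, so 2 of 9 tested members lower stands against that background. Fosb fell under the filter of a mean of 1 FPKM and was not tested. Of the 9 tested members, 4 had both circEsyt2 siRNA libraries above both scramble libraries and 3 had both below, against 29.7% and 31.1% of all tested genes, or 60.7% in either direction, which leaves 2 members whose groups overlapped. At an unadjusted p under 0.05, 3 tested members were higher and 2 lower, and 30.1% of all tested genes passed that mark. Fold changes below are differences of log2(FPKM + 1), circEsyt2 siRNA minus scramble siRNA, which understate the change of low genes. Their median over the 9 members was 0.17, and over all tested genes 0.0037.

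**Figure D1:**
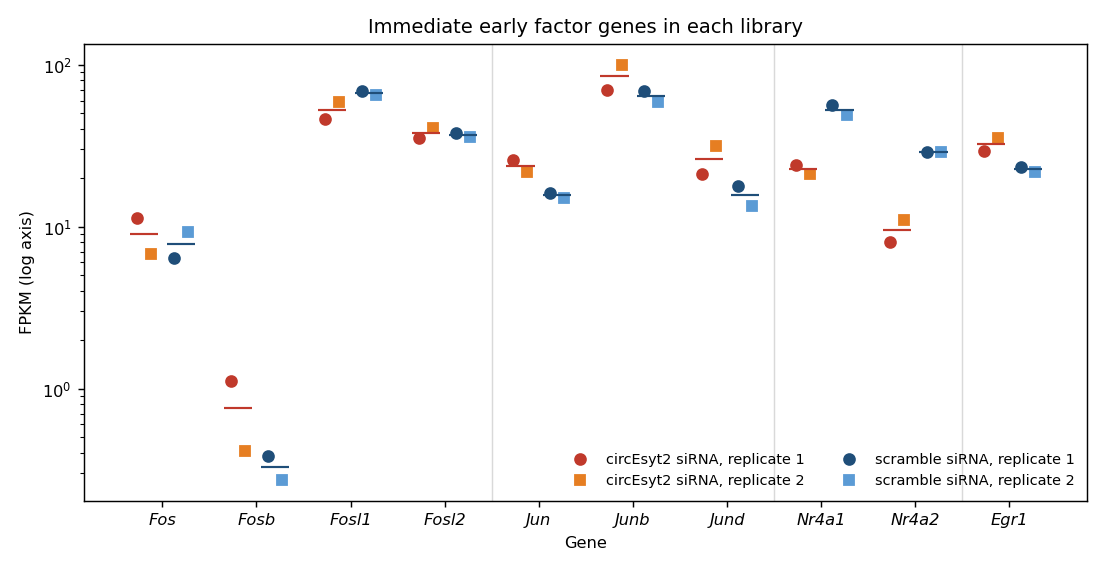
Level of each of the 10 genes in FPKM (vertical log axis) in the 4 libraries, with circEsyt2 siRNA to the left in red and orange, scramble siRNA to the right in blue, and lines at the group means (n = 2 each). Nr4a1 and Nr4a2 sit lower with circEsyt2 siRNA in both libraries, and Fosb lies near or under 1 FPKM throughout.

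The NR4A genes had the largest fold changes of the 9 tested members. In GENCODE M21 on GRCm38, Nr4a1 lies at chr15:101254269-101274795 on the plus strand and Nr4a2 at chr2:57106830-57124003 on the minus strand, each with 8 exons in its principal transcript and no exon shared with another gene. Nr4a1, the gene of the orphan receptor also called NUR77, had 24.1 and 21.2 FPKM with circEsyt2 siRNA, against 56.6 and 48.6 FPKM with scramble siRNA. Both circEsyt2 siRNA libraries lay below both scramble libraries, with means of 22.7 ± 2.06 FPKM with circEsyt2 siRNA and 52.6 ± 5.68 FPKM with scramble siRNA (SD, n = 2 each), a 2.32-fold lower mean. Its values rest on 319 and 233 reads with circEsyt2 siRNA and 500 and 702 reads with scramble siRNA. On the log2 scale Nr4a1 fell by 1.18 (SE 0.14; limma adjusted p = 0.00763), and 3.47% of tested genes had a lower fold change.

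Nr4a2, which encodes NURR1, had 7.98 and 10.95 FPKM with circEsyt2 siRNA, against 28.9 and 29.0 FPKM with scramble siRNA. The scramble libraries were nearly equal and the circEsyt2 siRNA libraries differed by more, but the groups were far apart. The means were 9.47 ± 2.10 FPKM with circEsyt2 siRNA and 28.9 ± 0.0588 FPKM with scramble siRNA (SD, n = 2 each), a 3.06-fold lower mean. Nr4a2 had the smallest p of the members, with a log2 fold change of −1.53 (SE 0.18; limma adjusted p = 0.00695), and 1.51% of tested genes lay lower still. Its values rest on 122 and 139 reads with circEsyt2 siRNA and 295 and 484 reads with scramble siRNA.

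Without circEsyt2 siRNA replicate 1, the library rich in hepatocyte markers, Nr4a1 fell by 1.27 (limma adjusted p = 0.0165) and Nr4a2 fell by 1.32 (limma adjusted p = 0.0148), and with the genes filtered over all 4 libraries both missed the threshold there (limma adjusted p = 0.0621 and adjusted p = 0.0583). The call of Nr4a1 was lost without circEsyt2 siRNA replicate 2 (log2 fold change −1.09, limma adjusted p = 0.0541). Both calls were lost without scramble replicate 1, at −1.07 and −1.53, and without scramble replicate 2, at −1.29 and −1.53, fits in which limma called 0 genes of any kind and 1959 and 2231 genes had an unadjusted p under 0.05.

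The related receptor gene Nr4a3, which is not one of the 10, was scarce in these cells. It had 3.02 and 3.15 FPKM with circEsyt2 siRNA, against 4.18 and 5.36 FPKM with scramble siRNA. Its groups did not overlap, and it was not called (log2 fold change −0.49, limma adjusted p = 0.182). Together the 3 NR4A genes summed to 35.1 and 35.3 FPKM with circEsyt2 siRNA and to 89.7 and 82.9 FPKM with scramble siRNA. Nr4a1 made up 68.7% and 60.1% of that sum with circEsyt2 siRNA and 63.1% and 58.6% with scramble siRNA, so it was the most abundant NR4A messenger in each library.

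Because Nr4a1 and Nr4a2 moved together and Jun stood the other way, the promoters of these 3 genes are shown from RefSeq on GRCm38.p6, each with 250 bases before the start of transcription and 50 after it, 5′ to 3′ on the strand of the gene. Nr4a1 lies on chromosome 15 at chr15:101266596-101266895 (plus strand), a start site inside the gene's span in the GENCODE M21 annotation, Nr4a2 on chromosome 2 at chr2:57123954-57124253 (minus strand), and Jun on chromosome 4 at chr4:95052173-95052472 (minus strand). Capitals mark TGACG on either strand, the core of the cAMP response element that CREB family factors bind, and in Jun the variant TGACATCA, known as an AP-1 site of this promoter.
Nr4a1: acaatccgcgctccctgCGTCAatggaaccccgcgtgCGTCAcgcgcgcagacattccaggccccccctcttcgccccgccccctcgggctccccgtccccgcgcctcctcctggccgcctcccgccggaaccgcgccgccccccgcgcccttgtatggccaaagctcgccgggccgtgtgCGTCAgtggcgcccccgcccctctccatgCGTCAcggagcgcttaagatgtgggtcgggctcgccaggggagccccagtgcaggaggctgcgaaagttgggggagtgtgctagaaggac
Nr4a2: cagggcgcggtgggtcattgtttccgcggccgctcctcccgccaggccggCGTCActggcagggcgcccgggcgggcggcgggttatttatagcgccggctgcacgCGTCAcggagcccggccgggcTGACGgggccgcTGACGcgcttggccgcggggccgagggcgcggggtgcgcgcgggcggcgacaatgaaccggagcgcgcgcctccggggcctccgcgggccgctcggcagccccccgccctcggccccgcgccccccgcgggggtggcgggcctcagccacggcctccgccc
Jun: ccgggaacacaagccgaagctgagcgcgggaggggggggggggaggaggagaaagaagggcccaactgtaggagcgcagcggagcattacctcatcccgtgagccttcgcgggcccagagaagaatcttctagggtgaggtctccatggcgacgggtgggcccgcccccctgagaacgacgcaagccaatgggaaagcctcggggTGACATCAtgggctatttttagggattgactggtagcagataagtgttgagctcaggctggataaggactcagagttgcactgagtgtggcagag

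Promoters were read for 8 of the 10 members, without Fosl1 and Egr1, and TGACG was found in 5 of the 8. Nr4a1 and Nr4a2 held 4 matches each, Fos held 2, Fosb and Junb held 1 each, and Jun, Jund and Fosl2 held 0. The Jund window ends upstream of the Jund gene of GENCODE M21 and does not reach it, and the RefSeq start of Fosl2, like that of Nr4a1, lies inside the M21 gene. By comparison 20.8% of all 32817 promoters of this length held at least 1 match and 0.232% held 4 or more. These shares count the promoters of genes expressed here or not, so they are not shares of the tested genes. Of the tested genes with a promoter read, 5649 held no match, 3114 held 1 to 3 and 56 held 4 or more. The full element TGACGTCA, which would contain the core on both strands, was in none of the 8 and in 1.79% of all promoters. The AP-1 element TGANTCA (7.81% of all promoters) and the NR4A monomer element AAAGGTCA (1.51%) were likewise not in these windows of the 8 members. Nor was the CArG box of serum response factor (1.63%), taken strictly with only A or T between CC and GG. TGACATCA, found in Jun, was in 3.62% of all promoters. Elements farther upstream or with a mismatched base were not looked for. Among 56 tested genes with 4 or more TGACG matches, 3 were called lower, Nr4a1, Nr4a2 and Rab5a, and 1 higher, Dusp8, with a median log2 fold change of 0.0036. Of 5649 tested genes with no match, 470 were called lower and 273 higher. Of 3114 with 1 to 3 matches, 173 were called lower and 198 higher. Over all tested genes, including those without a promoter read here, 12.7% were called in either direction. The motifs were picked after the values were known, and a match describes letters in a window and not a bound site.

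All 3 Jun family genes were above scramble siRNA in both circEsyt2 siRNA libraries, and none was called by limma on log2(FPKM + 1), whereas voom on reads recovered from the FPKM digits called Jun higher (log2 fold change 0.61, adjusted p = 0.0411). Jun, the founding AP-1 subunit and a strong activator, had 25.8 and 21.7 FPKM with circEsyt2 siRNA, against 16.2 and 15.1 FPKM with scramble siRNA. Both circEsyt2 siRNA libraries were above both scramble libraries, and the log2 fold change of 0.57 (SE 0.15) missed the threshold (limma adjusted p = 0.0582). Its 95% interval ran from 0.21 to 0.93, and 13.3% of tested genes had a higher fold change. Without circEsyt2 siRNA replicate 1 it was 0.45 (limma adjusted p = 0.153).

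Jund, a subunit usually present without a stimulus, had 21.2 and 31.2 FPKM with circEsyt2 siRNA, against 17.9 and 13.4 FPKM with scramble siRNA. The groups did not overlap, but the spread within each was wide, and the log2 fold change of 0.70 (SE 0.23) was not called (limma adjusted p = 0.105). Junb, which encodes a subunit that activates less strongly than JUN and can restrain it, had 69.5 and 99.8 FPKM with circEsyt2 siRNA, against 68.6 and 58.9 FPKM with scramble siRNA. The lower circEsyt2 siRNA library sat just above the higher scramble library, and Junb was not called (log2 fold change 0.38, 95% interval −0.09 to 0.86, limma adjusted p = 0.237). The fold change of Junb was 0.64 without circEsyt2 siRNA replicate 1 and 0.13 without replicate 2, and that of Jund 0.97 and 0.43, neither gene passing the threshold in these fits.

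On GRCm38, Jun lies at chr4:95049034-95052222 (minus strand), Junb at chr8:84974484-84978718 (minus strand) and Jund at chr8:70698949-70700616 (plus strand). All 3 Jun genes have a single exon in their principal transcripts, and each shares exon sequence with a gene on the opposite strand in GENCODE M21: Junos for Jun, Prdx2 for Junb and Gm11175 for Jund. No strand or overlap setting is given in the sources used here. Whether reads in the shared parts were counted for the Jun genes, for the partners or for neither is therefore not known. Prdx2, a peroxidase gene, had 84.3 and 69.0 FPKM with circEsyt2 siRNA and 94.9 and 96.0 FPKM with scramble siRNA, the opposite order from Junb.

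No tested Fos family gene passed the test. On GRCm38, Fos lies at chr12:85473890-85477273 (plus strand), Fosb at chr7:19302696-19310051 (minus strand), Fosl1 at chr19:5447547-5455946 (plus strand) and Fosl2 at chr5:32135801-32157842 (plus strand), each with 4 exons in its principal transcript. Fosl1, which encodes FRA1, a Fos protein lacking a strong activation domain and typical of sustained growth factor signalling, had 46.1 and 58.6 FPKM with circEsyt2 siRNA, against 68.4 and 65.3 FPKM with scramble siRNA. Both circEsyt2 siRNA libraries were below both scramble libraries. The log2 fold change was −0.36 (SE 0.15, 95% interval −0.71 to 0.00; limma adjusted p = 0.166), and it was −0.19 without circEsyt2 siRNA replicate 1 and −0.53 without replicate 2. An opposite-strand gene, Ccdc85b, overlaps exons of Fosl1 and had 14.4 and 16.8 FPKM with circEsyt2 siRNA and 28.1 and 39.5 FPKM with scramble siRNA, and what part it has in the Fosl1 values was not tested.

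Fosl2, the gene of FRA2, had 35.3 and 40.6 FPKM with circEsyt2 siRNA and 37.8 and 35.6 FPKM with scramble siRNA. Its groups overlapped, and its 95% interval of −0.27 to 0.36 on the log2 scale was the narrowest of the 9 (log2 fold change 0.04, limma adjusted p = 0.845). Fos, the subunit best known for transient induction, had 11.3 and 6.80 FPKM with circEsyt2 siRNA and 6.42 and 9.19 FPKM with scramble siRNA. Each group held a lower and a higher library, the groups overlapped, the fold change was 0.17 (95% interval −0.51 to 0.85, limma adjusted p = 0.709), and without circEsyt2 siRNA replicate 1 it was −0.16.

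Fosb, a further Fos protein gene that neurons induce, was the scarcest member, at 1.11 and 0.410 FPKM with circEsyt2 siRNA and 0.382 and 0.272 FPKM with scramble siRNA. These values come from 26 and 8 reads with circEsyt2 siRNA and 6 and 7 reads with scramble siRNA. The exact Poisson 95% intervals, which cover counting error only, were 0.723 to 1.62 FPKM for circEsyt2 siRNA replicate 1, 0.177 to 0.807 for replicate 2, and 0.140 to 0.831 and 0.110 to 0.561 for the scramble libraries. The interval of circEsyt2 siRNA replicate 2 covers both scramble values, and Fosb was highest in circEsyt2 siRNA replicate 1, where hepatocyte markers were also highest, and their part in it was not tested. Fitted without the filter, Fosb had a log2 fold change of 0.38 (limma adjusted p = 0.594).

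Egr1, a zinc finger factor that serum and injury induce in the vessel wall, had 29.2 and 35.4 FPKM with circEsyt2 siRNA, against 23.3 and 21.7 FPKM with scramble siRNA. The groups did not overlap, and the log2 fold change of 0.50 (SE 0.14, 95% interval 0.14 to 0.85) was not called (limma adjusted p = 0.0774). Leaving out circEsyt2 siRNA replicate 1 gave 0.63 (limma adjusted p = 0.0644). The voom test called Jun and Egr1 (adjusted p = 0.0416) higher and Nr4a1 and Nr4a2 lower, of the 8 members it could test. That tool called 7.98% of its 10821 genes higher and 10.5% lower. The order of Egr1 and Nr4a1 differed between the groups, the Egr1 level being 1.21 and 1.67 times that of Nr4a1 with circEsyt2 siRNA, and 0.412 and 0.447 times with scramble siRNA.

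**Figure D2:**
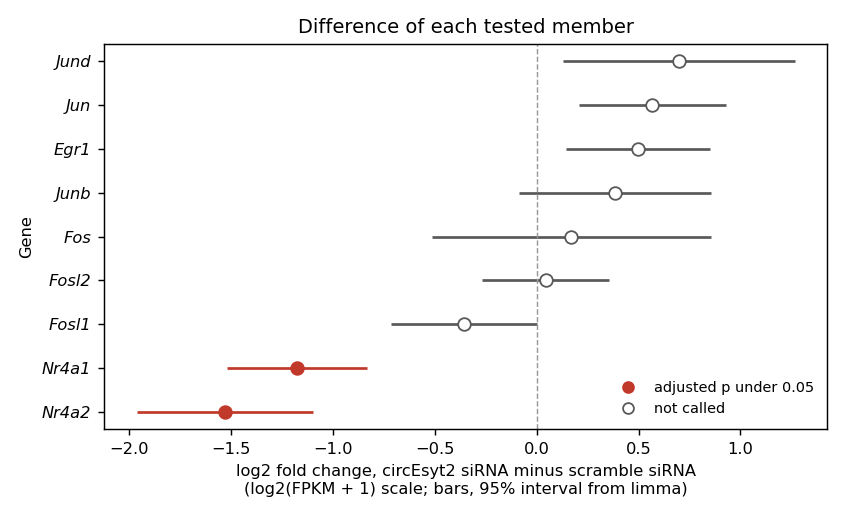
Log2 fold change of the 9 tested members (circEsyt2 siRNA minus scramble siRNA, log2(FPKM + 1) scale) with limma's 95% interval as bars, filled red where the adjusted p was under 0.05. Nr4a2 at −1.53 and Nr4a1 at −1.18 lie apart from the other 7, which run from −0.36 (Fosl1) to 0.70 (Jund).

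The balance between the AP-1 families differed between the groups in these libraries. The summed Fos family level was 93.7 and 106 FPKM with circEsyt2 siRNA and 113 and 110.4 FPKM with scramble siRNA. The summed Jun family level was 116 and 153 FPKM with circEsyt2 siRNA and 103 and 87.4 FPKM with scramble siRNA. The ratio of the Fos sum to the Jun sum was 0.805 and 0.697 with circEsyt2 siRNA, against 1.10 and 1.26 with scramble siRNA, so Jun family messengers were in the majority with circEsyt2 siRNA and Fos family messengers with scramble siRNA. These sums describe 2 libraries per group and were not tested, and messengers do not give the amounts of protein dimers. No tested gene of either family was called by limma on log2(FPKM + 1). Fosl1 and the Jun genes also share exon sequence with opposite-strand genes, and how those reads entered the sums is not known.

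Within the Fos family, Fosl1 and Fosl2 made up most of the messengers in every library. Fosl1 accounted for 49.1% and 55.1% of the Fos sum with circEsyt2 siRNA and for 60.5% and 59.2% with scramble siRNA. Fosl2 accounted for 37.6% and 38.1% with circEsyt2 siRNA and for 33.4% and 32.2% with scramble siRNA. Junb led the Jun family, with 59.7% and 65.3% of the Jun sum with circEsyt2 siRNA and 66.8% and 67.4% with scramble siRNA.

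**Figure D3:**
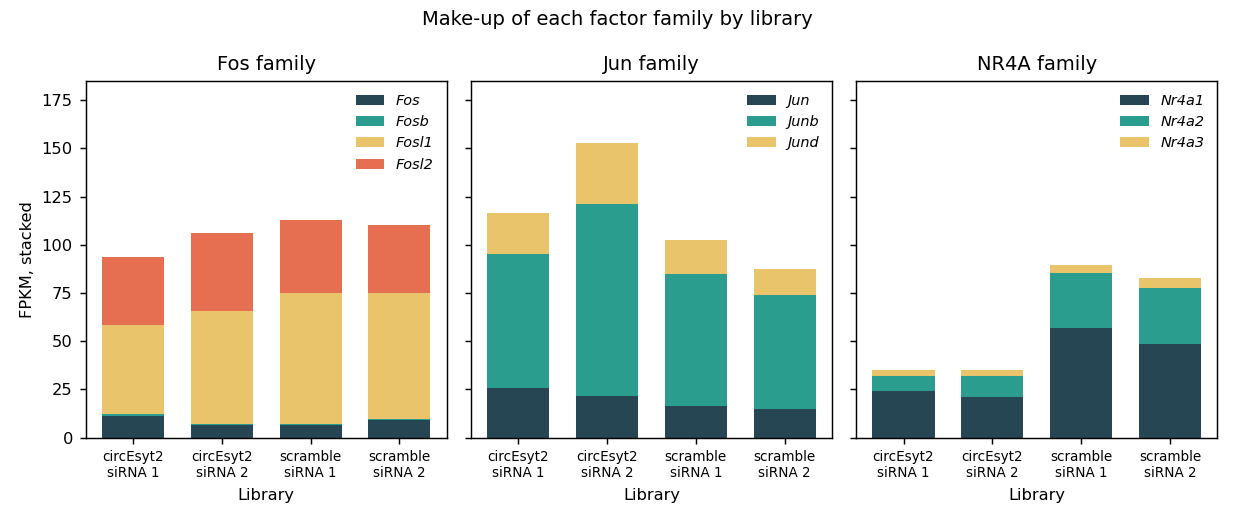
Stacked FPKM of the Fos, Jun and NR4A genes in each library (vertical axis in FPKM, 1 bar per library, circEsyt2 siRNA to the left, 1 colour per gene). The NR4A bars stand at 35.1 and 35.3 with circEsyt2 siRNA and at 89.7 and 82.9 with scramble siRNA, while Fosl1, Fosl2 and Junb fill most of the AP-1 bars.

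By mean FPKM, a level per length, the order with circEsyt2 siRNA was Junb (84.6), Fosl1 (52.3), Fosl2 (37.9), Egr1 (32.3), Jund (26.2), Jun (23.7), Nr4a1 (22.7), Nr4a2 (9.47), Fos (9.05) and Fosb (0.758). In that order the library values of neighbours overlapped from Fosl2 through Egr1, Jund and Jun to Nr4a1, and again between Nr4a2 and Fos. With scramble siRNA it was Fosl1 (66.9), Junb (63.7), Nr4a1 (52.6), Fosl2 (36.7), Nr4a2 (28.9), Egr1 (22.5), Jun (15.64), Jund (15.63), Fos (7.81) and Fosb (0.327). There the overlaps lay between Fosl1 and Junb and between Jun and Jund. Both NR4A genes thus had higher means than Egr1, Jun and Jund with scramble siRNA, and lower means than these with circEsyt2 siRNA.

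The genes most like Nr4a2 across the 4 libraries, by the root mean square difference of log2(FPKM + 1) values centred on the mean of each gene, were Fam114a1 (0.0254), Npnt (0.0307) and Loxl3 (0.0621), of 11289 genes compared. Npnt encodes the matrix protein nephronectin and Loxl3 a lysyl oxidase of the matrix. Fam114a1 had 12.9 and 17.5 FPKM with circEsyt2 siRNA, against 44.3 and 46.8 FPKM with scramble siRNA. Npnt had 3.59 and 4.84 FPKM with circEsyt2 siRNA, against 13.4 and 13.8 FPKM with scramble siRNA. Loxl3 had 12.3 and 15.4 FPKM with circEsyt2 siRNA, against 44.9 and 41.4 FPKM with scramble siRNA. With 4 libraries such likeness is a description of these samples.

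Other genes of the pathway were read from lists that were likewise chosen with earlier results of these data known, so their counts are given as descriptions beside the 12.7% of all genes called. Of the other AP-1 dimer partners, 2 of 9 tested were higher and 0 lower, with a median log2 fold change of 0.37. At an unadjusted p under 0.05 the list had 4 higher and 1 lower, and voom called 3 higher and 1 lower of 9. Over all genes, 30.1% passed that unadjusted mark, and voom called 7.98% of its genes higher and 10.5% lower. These shares are the background for the unadjusted and voom counts of the lists that follow as well. Atf3, a stress-induced repressor or activator that pairs with Jun proteins, had 50.3 and 59.7 FPKM with circEsyt2 siRNA, against 2.21 and 4.74 FPKM with scramble siRNA (log2 fold change 3.70, limma adjusted p = 0.00351). Mafk, a small Maf protein gene, had 23.3 and 29.2 FPKM with circEsyt2 siRNA and 12.1 and 13.3 FPKM with scramble siRNA (log2 fold change 0.98, limma adjusted p = 0.0176).

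Other immediate early factors and partners had 3 of 13 tested higher and 0 lower, with a median of 0.18. At an unadjusted p under 0.05, passed by 30.1% of all tested genes, there were 4 higher and 1 lower. Voom called 3 higher and 1 lower of 13, against 7.98% and 10.5% of its genes. Klf6, a zinc finger factor gene, had 189 and 208 FPKM with circEsyt2 siRNA, against 75.2 and 86.8 FPKM with scramble siRNA (log2 fold change 1.28, limma adjusted p = 0.0047). Myc, the growth regulator gene, had 40.2 and 47.2 FPKM with circEsyt2 siRNA and 20.8 and 22.7 FPKM with scramble siRNA (log2 fold change 0.97, limma adjusted p = 0.0119). The other one was Klf2 (log2 fold change 0.69), named after its values were seen. The closest relatives of Egr1 were scarce, with Egr2 at 3.60 and 4.52 FPKM with circEsyt2 siRNA and 3.39 and 5.79 FPKM with scramble siRNA, and Egr3 and Egr4 were under the filter.

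Upstream of these promoters limma called 13.3% of MAP kinase cascade genes and 14.3% of upstream transcription factors, against 12.7% of all tested genes. At an unadjusted p under 0.05 the cascade had 2 higher and 2 lower of 15, and the factors 4 higher and 3 lower of 14. That mark was passed by 30.1% of all tested genes. Voom called 1 higher and 2 lower of 15 in the cascade, and 1 higher and 1 lower of 12 factors. In the MAP kinase cascade 1 of 15 tested genes was higher and 1 lower, with a median of −0.15. Map2k1, which encodes the kinase MEK1 that activates ERK, had 104 and 116 FPKM with circEsyt2 siRNA, against 65.0 and 73.4 FPKM with scramble siRNA (log2 fold change 0.67, limma adjusted p = 0.0228). Map2k3, which encodes an activator of p38, had 46.6 and 44.3 FPKM with circEsyt2 siRNA, against 71.3 and 62.7 FPKM with scramble siRNA (log2 fold change −0.55, limma adjusted p = 0.0379). Among upstream transcription factors, 1 of 14 was higher, Mef2d (log2 fold change 0.67, limma adjusted p = 0.043), and 1 lower, the ternary complex factor gene Elk3 (log2 fold change −0.57, limma adjusted p = 0.038). Mef2d had 23.5 and 28.1 FPKM with circEsyt2 siRNA and 16.9 and 14.7 FPKM with scramble siRNA, and Elk3 had 17.4 and 17.9 FPKM with circEsyt2 siRNA and 26.1 and 27.2 FPKM with scramble siRNA. Srf, the serum response factor gene, had 16.0 and 17.0 FPKM with circEsyt2 siRNA and 17.4 and 17.1 FPKM with scramble siRNA, and Creb1 had 4.45 and 5.31 FPKM with circEsyt2 siRNA and 2.83 and 4.44 FPKM with scramble siRNA, neither of them called.

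Genes known as AP-1 targets differed in both directions, with 6 of 22 tested higher, 7 lower and a median of −0.16, so 59.1% of the list was called. These counts depended on the fit. With eBayes without a trend 1 target was higher and 4 were lower, and with the replicate block 5 and 7. Voom called 6 higher and 8 lower of 20. At an unadjusted p under 0.05, passed by 30.1% of all tested genes, there were 7 higher and 9 lower. Higher were Mmp10, Mmp13, Plaur, Il11, Hbegf and Areg, which encode proteases, the urokinase receptor, a cytokine and growth factors. Lower were Plau, Il6, Ccl2, Ccnd1, Spp1, Ereg and Lif. The 2 with the smallest p were Ccnd1, the cyclin D1 gene, and Ereg, the growth factor gene epiregulin. Only these 2 of the called targets were followed gene by gene through the other fits. Ccnd1 had 23.6 and 23.2 FPKM with circEsyt2 siRNA, against 84.6 and 76.4 FPKM with scramble siRNA (log2 fold change −1.74, limma adjusted p = 0.00281). Ereg had 52.2 and 48.2 FPKM with circEsyt2 siRNA, against 129.8 and 121 FPKM with scramble siRNA (log2 fold change −1.31, limma adjusted p = 0.00406).

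Factors that bind the AU-rich elements of short-lived messengers had 2 of 8 tested lower and 0 higher, with a median of 0.07. At an unadjusted p under 0.05, passed by 30.1% of all tested genes, there were 1 higher and 2 lower. Voom called 0 higher and 2 lower of 8, against 7.98% and 10.5% of its genes. Zfp36l2, which encodes a decay factor, had 16.0 and 16.5 FPKM with circEsyt2 siRNA, against 34.6 and 31.5 FPKM with scramble siRNA (log2 fold change −0.98, limma adjusted p = 0.00992). Hnrnpd, which encodes AUF1, had 7.26 and 8.09 FPKM with circEsyt2 siRNA, against 16.2 and 18.1 FPKM with scramble siRNA (log2 fold change −1.07, limma adjusted p = 0.0119). With scramble replicate 1 or scramble replicate 2 left out, all 12 calls of these listed genes were lost. Those of Mafk, Myc, Map2k1, Map2k3, Elk3, Mef2d, Zfp36l2 and Hnrnpd were lost without circEsyt2 siRNA replicate 2, and the first 6 of these also with eBayes without a trend. Map2k3, Elk3 and Mef2d were lost without circEsyt2 siRNA replicate 1 as well (limma adjusted p = 0.0682, adjusted p = 0.0872 and adjusted p = 0.0528), with no filter on low values (0.0509, 0.0525 and 0.0613) and with the replicate number as a block (0.0649, 0.0752 and 0.0749). Without that replicate and with genes filtered over all 4 libraries, all 12 were lost. Opposite-strand genes overlap exons of Mafk, Elk3, Mef2d, Ccnd1, Ereg, Zfp36l2, Hnrnpd and Loxl3, and how reads in the shared parts were counted is not known.

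**Figure D4:**
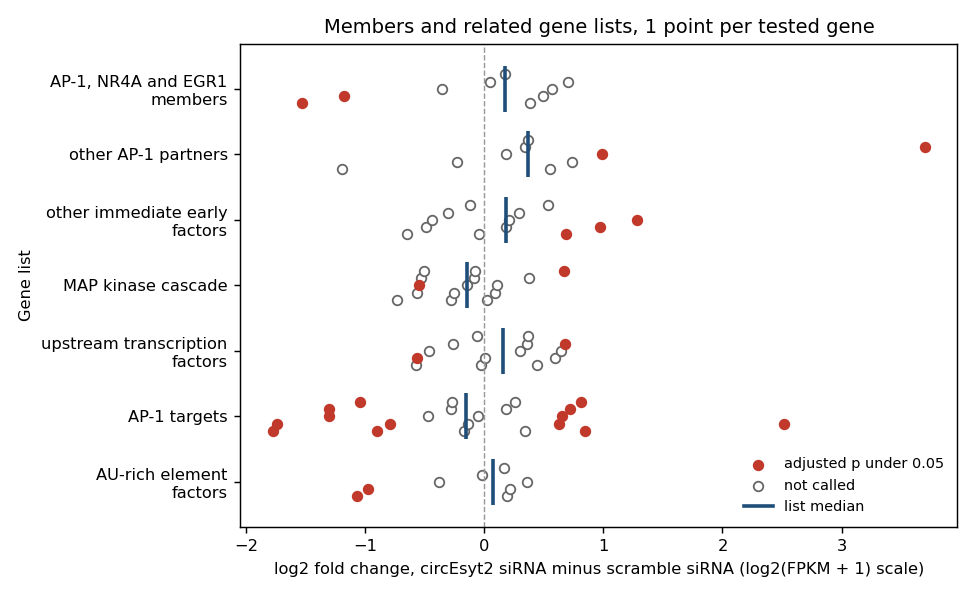
Log2 fold change (horizontal axis, circEsyt2 siRNA minus scramble siRNA, log2(FPKM + 1) scale) of each tested gene of the 10 members and of 6 related lists, 1 point per gene, filled red where limma's adjusted p was under 0.05, with the list median as a blue line. The list medians lie between −0.16 (AP-1 targets) and 0.37 (other AP-1 partners), with Atf3 at 3.70 the point farthest right.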

How the data were processed

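Cultured vascular smooth muscle cells in 2 groups of 2 libraries were sequenced as total RNA, per the labels. The deposited values are FPKM per gene, 1 file per library. The submitters' processing notes name Trimmomatic, HISAT2, featureCounts, mm10 and GRCm38; the sources used here state no settings, strand or annotation. A few abundant genes can shift all FPKM of a library, and the RNA of other cells enters the same total. Groups were taken from the sample titles.

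For the main result, log2(FPKM + 1) was modelled with limma (version 3.58.1, R version 4.3.3; linear fit with trended eBayes) over the 11290 genes with a mean of at least 1 FPKM over the 4 libraries, two-sided, with Benjamini-Hochberg adjustment over all of them and a threshold of 0.05. Intervals at 95% come from that fit. It was tested on simulated reads with known fold changes. Those reads had the same spread setting for every gene and no library that stood apart. That test therefore says little about calls where a library differs as circEsyt2 siRNA replicate 1 does here. Read totals were solved from the FPKM digits with the exon-union lengths of GENCODE M21, matched by symbol for 99.6% of genes: 96.7% to 96.8% of values above 0 gave whole reads within 0.01. Fosl1 did not, so no read number is given for it. Among values of 1 to 20 reads, 62.5% to 75.2% were even, the pattern that counting both mates of a pair would give, so Poisson intervals on reads are too narrow in so far as mates are counted separately. A single read on 1 kb of exon equals 0.243 to 0.397 FPKM.

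The members and lists were chosen with earlier results of these data known. Named genes are all members, Esyt2, the 2 tested genes with the smallest p of each list, and the 3 genes most like the member with the smallest p, without Rik clones, pseudogenes or predicted genes. Others are named as chosen after their values were seen, which also holds for all called AP-1 targets, Nr4a3, Egr2, Srf, Creb1, the marker genes, the overlapping genes and the genes with 4 or more TGACG matches. Alternatives were a pseudocount of 0.1, no filter on low values, median ratio scaling, quantile normalization, eBayes without a trend, leaving out each replicate, a replicate block, and voom on recovered reads.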

Additional observations from a re-analysis of the deposited data

How the results depend on the processing

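The direction of Nr4a1 and Nr4a2 was the same in all 12 alternatives, with log2 fold changes from −1.29 to −1.07 and from −1.74 to −1.32, and the adjusted p lay between 0.000892 and 0.18 and between 0.000568 and 0.188. Jun, Junb, Jund, Egr1 and Fosl1 also kept their direction wherever they were tested. Fos turned to −0.06 without scramble siRNA replicate 1 and to −0.16 without circEsyt2 siRNA replicate 1, in both versions of that fit, and Fosl2 to −0.054 without circEsyt2 siRNA replicate 2. The leave-one-out fits reached 0.50 at most for Fos and 0.14 for Fosl2, and none of these passed the threshold. Jun and Egr1 passed it with voom alone, where 2 members were higher; the cause was not tested. Over the leave-one-out fits 0 to 2 members were lower, 0 to 405 of all genes were higher and 0 to 622 lower, and 0 to 10 listed pathway genes were higher and 0 to 10 lower. These fits have 1 residual degree of freedom and assume that the lone library varies like the other group. Chosen after seeing the data, the fit without circEsyt2 siRNA replicate 1 that kept the genes filtered over the 4 libraries called 0 genes, against 405 higher and 622 lower with the filter on the remaining 3, and had 2990 at unadjusted p under 0.05, against 3240. With eBayes without a trend, 203 of all genes were higher and 374 lower, against 617 and 820, and 3 and 7 pathway genes against 13 and 11; the cause was not tested. The median over all genes moved by less than 0.1 with either scaling.

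The replicate numbers are not stated to pair the libraries, and the deviations of same-numbered libraries correlated at −0.0507 across genes. With the replicate block 404 of all genes were higher and 604 lower, and the Nr4a1 and Nr4a2 calls remained (adjusted p = 0.012 and adjusted p = 0.0116). It left 11 pathway genes higher and 9 lower, and ended the calls of Map2k3, Elk3 and Mef2d. The depth limits Fosb most, and after it Fos, with 38 to 100 reads a library.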
